A study of Mus musculus with 6 samples.

Results

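The nuclear-encoded respiratory chain genes are the genes of the cell nucleus that code for subunits of the 5 complexes of oxidative phosphorylation in mitochondria. They were selected by a rule on the symbol that does not use their values, though earlier results of these data were known when it was chosen. Symbols made of Nduf, the letter a, b, c, s or v and a number were taken for complex I, Sdha to Sdhd for complex II, Uqcr for complex III, Cox4 to Cox8 with at most 1 letter and 1 digit after the number for complex IV, and Atp5 for complex V. Pseudogene symbols with "-ps" were left out. Atp5l2, annotated as a processed pseudogene, lacks that suffix and was kept by the rule in complex V. This gave 81 of the 38553 genes in the table, with 36 in complex I, 4 in complex II, 8 in complex III, 15 in complex IV and 18 in complex V.

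The complexes lie in the inner mitochondrial membrane. Complex I (NADH dehydrogenase) and complex II (succinate dehydrogenase) pass electrons from NADH and succinate to ubiquinone, complex III (cytochrome bc1) passes them on to cytochrome c, and complex IV (cytochrome c oxidase) passes them to oxygen. Complexes I, III and IV pump protons as they do so, and complex V (ATP synthase) uses the proton gradient to make ATP. All of them except complex II are built from products of both the nuclear and the mitochondrial genome. Early embryonic tissue depends on glycolysis to a large degree, and oxidative phosphorylation is known to rise as many cell types differentiate.

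RNA-Seq was performed on craniofacial tissue microdissected from mouse embryos at E12.5, with 3 control samples of the genotype Rbfox2 flox/flox and 3 Rbfox2 mutant samples of the genotype Pax3Cre/+:Rbfox2 flox/flox. Both groups carry the floxed alleles of Rbfox2, which codes for an RNA-binding splicing factor, and the mutants also carry Cre knocked into 1 allele of Pax3, so they differ from controls in Pax3 dose as well. Cre from this allele is active in cells that expressed Pax3, among them neural crest cells, and the tissue also holds cells outside that lineage, in which Rbfox2 was not deleted. The measure is FPKM, a fragment count scaled for gene length and for the size of the library, so levels of different genes can be compared per length, while the read count behind a value is unknown.

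Rbfox2, the targeted gene, was at 58.4, 65.0 and 61.3 FPKM in the controls and 38.1, 36.3 and 34.3 FPKM in the mutants, so the groups did not overlap. The FPKM of all genes summed to between 528123 and 590174 per sample. The first principal component of the 10061 genes that passed the filter below held 54.7% of the variance and set the first replicate of both groups apart, at -19.1 and -17.0, from the other 4 samples at 7.55 to 11.01. Y-linked genes were expressed in mutant replicates 1 and 2 only (mean FPKM 14.4 and 13.9, at most 0.0541 elsewhere), so sex and genotype are partly confounded. The markers of cranial mesenchyme were all expressed, with sums of 374 to 472 FPKM over 8 genes and no order by group. Of 9 tested neuron markers, 4 were higher in mutants at an unadjusted p under 0.05 in limma, against 0.706% of all genes. The sums of all 10 on the list were 708 to 787 FPKM in controls and 837 to 942 in mutants. Tubb3 made up a large part of these sums, with a mean of 360 FPKM in controls and 455 in mutants. Of the 9 tested, 8 had a log2 fold change above 0 and 1, Nefm, was below it (-0.064). Replicate number was then added as a block in limma. At an unadjusted p under 0.05, 7 of the 9 neuron and 3 of 7 erythroid markers were higher, against 2.31% of all genes. At that threshold 6 of 8 skeletal muscle and 2 of 7 epithelium markers were lower, against 3.7% of all genes. None had an adjusted p under 0.05 (limma). No label ties the replicate numbers of the groups to each other, so the pairing that these counts rest on is uncertain. In whole tissue, a change in the share of a cell type and a change in RNA per cell cannot be told apart.

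To show what the members share at the DNA level, the bases before the annotated start were read from the RefSeq promoters of GRCm38.p6, in which 68 of the 81 members were matched by symbol. The letters CGCANGCG, the core recognized by nuclear respiratory factor 1 (NRF1), a classical activator of respiratory chain genes, were searched on both strands from 250 bases before to 50 bases after the start. Where a gene has several promoters in the table (6 of the members counted here), the first listed was used. Of the 64 matched members that passed the filter, 24 (37.5%) held them, against 8.42% of 27025 promoters in all and 19.6% of those of the 7546 tested genes with a promoter. The letters CCGGAAG, bound by ETS factors such as GABP, stood in 15 members (23.4%, against 20.2% of tested genes). The letters ATGGCGG, bound by YY1, stood in 10 members (15.6%, against 9.53%), 8 of them in complex I. The letters GGGCGG of the GC box stood in 25 members (39.1%), below the 68.4% of tested genes. At least 1 of the first 3 motifs was present in 39 members (60.9%, against 41.1% of tested genes and 18.7% of all promoters). None of these motifs contains another, though matches can share bases, and a match is a description of the sequence and not a binding site. When a gene was counted if any of its promoters held the letters, the NRF1 type stood in 26 members (40.6%, against 21.5% of tested genes), the ETS type in 16 (25%, against 22.1%) and the YY1 type in 11 (17.2%, against 10.7%).

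The member with the highest mean FPKM among those whose first listed promoter has NRF1-type letters wholly within 150 bases before the start is shown for complexes I, II, IV and V, so that the shared letters can be read in their context. No complex III member had them there, and Uqcrh, its member with the highest level, is shown in its place. Each is printed 5′ to 3′ on the strand of the gene and ends at the base before the start. Capitals mark the NRF1-type letters and, where present, the ETS-type letters CCGGAAG or their reverse complement.
Ndufa12 (chr10:94198885-94199034, plus strand, NRF1-type letters from -119): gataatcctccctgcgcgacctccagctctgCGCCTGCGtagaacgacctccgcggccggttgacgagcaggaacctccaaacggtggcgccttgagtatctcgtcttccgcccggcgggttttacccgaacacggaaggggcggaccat
Sdhd (chr9:50603850-50603999, minus strand, NRF1-type from -78 and ETS-type from -46): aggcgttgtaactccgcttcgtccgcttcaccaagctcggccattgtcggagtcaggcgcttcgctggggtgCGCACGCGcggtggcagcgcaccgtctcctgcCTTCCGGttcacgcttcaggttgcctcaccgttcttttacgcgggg
Cox6a1 (chr5:115348959-115349108, minus strand, NRF1-type from -116 and ETS-type from -16): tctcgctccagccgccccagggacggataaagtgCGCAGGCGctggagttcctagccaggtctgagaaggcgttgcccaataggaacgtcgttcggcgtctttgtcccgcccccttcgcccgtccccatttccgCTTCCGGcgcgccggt
Atp5k (chr5:108434400-108434549, minus strand, NRF1-type from -49): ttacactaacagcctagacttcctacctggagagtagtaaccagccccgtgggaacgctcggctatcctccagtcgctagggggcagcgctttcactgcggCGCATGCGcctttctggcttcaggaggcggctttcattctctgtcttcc
Uqcrh (chr4:116075071-116075220, minus strand, ETS-type from -10): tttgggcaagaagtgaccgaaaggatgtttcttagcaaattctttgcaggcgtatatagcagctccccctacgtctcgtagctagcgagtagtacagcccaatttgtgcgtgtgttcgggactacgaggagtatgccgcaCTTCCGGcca

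The genes for the factors themselves were expressed in both groups. Nrf1 was at 27.6, 31.4 and 37.3 FPKM in controls and 26.6, 39.8 and 40.0 FPKM in mutants, Gabpa at 23.3 to 25.9 FPKM and 22.8 to 27.2 FPKM, and Yy1 at 29.9 to 30.6 FPKM and 29.2 to 35.2 FPKM, with overlap of the groups in each case. These 3 are named because their motifs were searched.

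The members were highly expressed in the craniofacial tissue. An FPKM over 5 in all controls or all mutants was reached by 74 of the 81, which were all 36 of complex I, 4 of complex II and 8 of complex III, 10 of 15 in complex IV and 16 of 18 in complex V. The median of their mean FPKM over the 6 samples was 320 in complex V, 273 in complex IV, 157 in complex III, 102 in complex II and 94.5 in complex I, against 20.3 over all genes tested. In every sample complex V had the highest median FPKM, followed by complex IV and complex III, while the medians of complexes I and II were close, at 89.2 to 105.3 FPKM and 94.6 to 104.5 FPKM over the 6 samples, so their ranges overlapped. Atp5b, the catalytic beta subunit of ATP synthase (ENSMUSG00000025393, chromosome 10 of GRCm38 from 128083273 to 128090391), had the highest level of all members. Cox6b1, a small subunit of cytochrome c oxidase at the interface of its dimer, was second with a mean of 484.5 FPKM. Within a complex the subunits did not have 1 common level, since the means ran from 18.2 (Ndufa11) to 341.3 FPKM (Ndufa4) in complex I and from 83.4 (Uqcrfs1, the Rieske iron-sulfur protein) to 402.6 FPKM (Uqcrh, the hinge protein that binds cytochrome c1) in complex III. The 4 subunits of complex II were the most even, with means from 79.6 (Sdhc) to 114.8 FPKM (Sdhb).

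**Figure D1:**
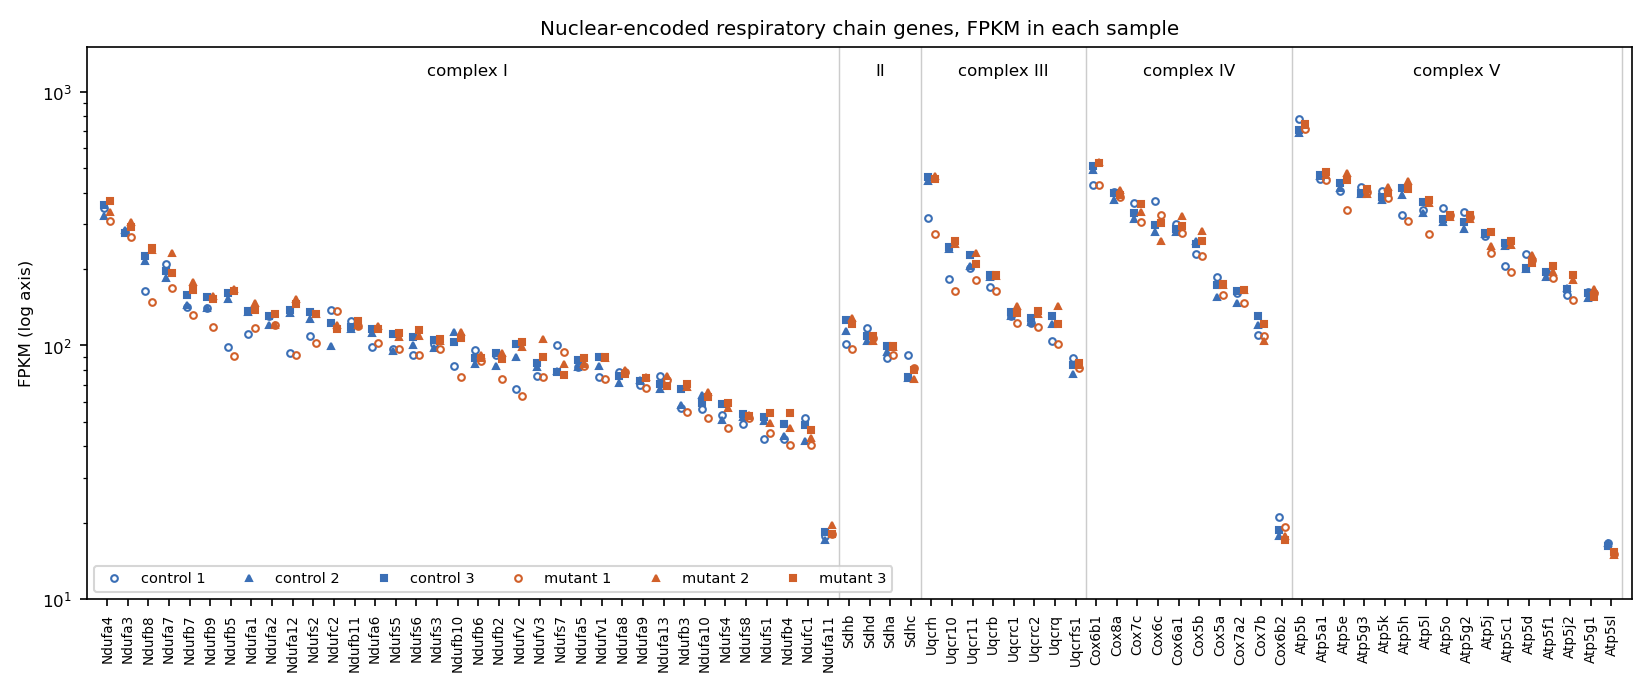
FPKM on a log axis of the 74 members that passed the filter, grouped by complex and ordered by mean level, with controls in blue and Rbfox2 mutants in orange and the first replicates as open circles. Control and mutant values lie over each other in nearly every gene, and in genes such as Ndufb5 and Uqcrh the open circles of both groups sit below the 4 other samples.

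To ask whether loss of Rbfox2 was accompanied by a change in the nuclear genes of any complex, the 3 mutants were compared with the 3 controls. No member passed the test. In none of the 74 was the adjusted p under 0.05 (limma on log2(FPKM + 1), Benjamini-Hochberg over 10061 genes, of which 0% were called), and none had an unadjusted p under 0.05 in either direction, where 0.706% of all genes were higher and 0.954% lower in mutants. The smallest unadjusted p of a member in limma was 0.122. Rbfox2 itself, with a log2 fold change of -0.749, had an adjusted p of 0.138 (limma) and missed the threshold too. An adjusted p above 0.05 in this fit is therefore weak evidence that a gene did not change. Over all genes 167 had an unadjusted p under 0.05 here, and 611 with a term for the first replicates added (limma). The smallest p of a member in that second fit was 0.0656 (limma). The log2 fold changes, given as mutant minus control, ran only from -0.13 (Ndufc1) to 0.14 (Ndufv3), and 47 of the 74 (63.5%, against 52.8% of all genes) were above 0. Their median was 0.015 and the median of their size 0.031, against 0.0057 and 0.054 over all genes tested.

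The intervals give the range of change in the whole tissue that this fit could have missed, and not that in the cells with the deletion. The fit has no term for sex or replicate number. With the level of Y-linked genes as a covariate, the log2 fold changes of the members ran from -0.164 to 0.299. The 95% confidence interval of the log2 fold change lay within 0.5 of 0 in both directions for 69 of the 74 members. The other 5 were Ndufb5, Ndufa12, Ndufb8, Ndufv2 and Uqcrh, named here after their values were seen, and the widest interval was that of Ndufb5, from -0.65 to 0.68. An exact two-sided permutation test of 3 samples against 3 cannot give a p below 0.10.

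**Figure D2:**
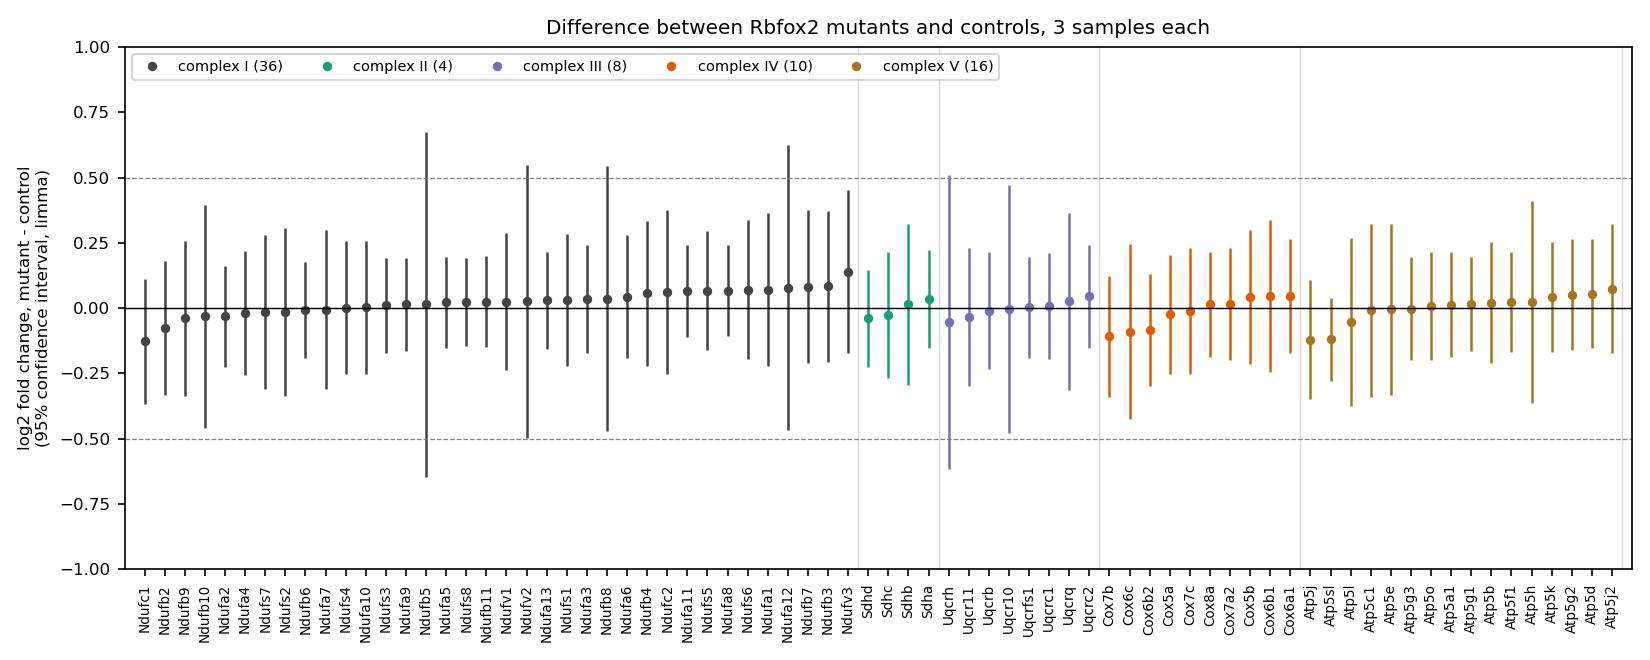
Log2 fold change of each of the 74 members (points, mutant minus control on log2(FPKM + 1)) with its 95% confidence interval from limma (lines), by complex, with dashed lines at -0.5 and 0.5. Every interval includes 0, and those of 5 members, 4 in complex I and 1 in complex III, reach past a dashed line.

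In complex I, the entry point for electrons from NADH, the median log2 fold change of the 36 members was 0.024. The 7 nuclear-encoded core subunits, which hold the flavin and the iron-sulfur clusters (Ndufv1, Ndufv2 and Ndufs1, 2, 3, 7 and 8) had log2 fold changes between -0.015 and 0.032. The highest value in the complex was that of Ndufv3, an accessory subunit of the NADH-binding module (ENSMUSG00000024038, chromosome 17 from 31520115 to 31531331). Its FPKM was 76.1, 82.2 and 85.2 in controls and 74.8, 106 and 89.8 in mutants. Mutant replicates 2 and 3 were above every control, while mutant replicate 1 was the lowest of the 6 samples. Ndufv3 had a log2 fold change of 0.14 with a standard error of 0.13 (adjusted p = 1, limma), and without mutant replicate 1 it was 0.27 (unadjusted p = 0.0407, adjusted p = 0.907 from limma, with 1.96% of all genes called higher in that fit). Ndufc1, a small accessory subunit of the membrane arm (ENSMUSG00000037152, chromosome 3), was at 52.0, 42.1 and 48.5 FPKM in controls and 40.4, 43.1 and 46.5 in mutants. The groups overlapped, and the log2 fold change of -0.13 had a standard error of 0.10 (adjusted p = 1, limma). The most abundant complex I symbol, Ndufa4, was at 348, 324 and 358 FPKM in controls and 310, 337 and 370 in mutants, and mutants were both lowest and highest. Its protein is now counted as a subunit of complex IV, and the symbol rule keeps it here.

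Complex II was the complex with the smallest range of log2 fold changes, from -0.040 (Sdhd) to 0.035 (Sdha), with a median of -0.0052. Sdhb, the iron-sulfur subunit, was at 102, 114 and 126 FPKM in controls and 97.2, 128 and 121 in mutants. Sdhd, which anchors the enzyme in the membrane, was at 117, 104 and 109 FPKM and 107, 104 and 109 FPKM, and Sdha, the flavoprotein, at 89.6, 94.6 and 99.4 FPKM and 92.0, 99.0 and 99.6 FPKM. The 2 groups overlapped in all 4 genes.

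In complex III the median log2 fold change of the 8 members was 0.00040 and the range from -0.053 (Uqcrh) to 0.045 (Uqcrc2, a core protein). Uqcrh was at 317, 443 and 461 FPKM in controls and 274, 467 and 453 in mutants. Both first replicates were below the other 4 samples, among which the 2 genotypes overlapped. Uqcr10, a small subunit with the second highest level, had the same pattern, with 182, 240 and 245 FPKM in controls and 164, 251 and 259 in mutants.

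In complex IV the median over the 10 members that passed the filter was 0.0017. Cox6b1 was at 430, 491 and 509 FPKM in controls and 427, 529 and 522 in mutants, and Cox8a, a small membrane subunit, at 401, 373 and 399 FPKM and 383, 410 and 391 FPKM. Neither separated the groups. Cox7b, an X-linked subunit, had the lowest log2 fold change of the complex at -0.11 (adjusted p = 1, limma), from 110, 120 and 130 FPKM in controls and 109, 104 and 121 in mutants. The other X-linked members were Ndufa1 (log2 fold change 0.071) and Ndufb11 (0.024), accessory subunits of complex I. Both overlapped between the groups, which differ in the sex of the embryos.

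In complex V the median over 16 members was 0.015. Atp5b was at 780, 687 and 709 FPKM in controls and 715, 740 and 749 in mutants, and Atp5a1, the alpha subunit, at 454, 466 and 470 FPKM and 449, 471 and 483 FPKM. Atp5b was highest in a control and Atp5a1 in a mutant, and both overlapped. The 5 subunits of the F1 part, which makes ATP, had log2 fold changes between -0.0082 and 0.056, and the 10 of the membrane and stalk parts between -0.12 (Atp5j, coupling factor 6) and 0.075 (Atp5j2, subunit f). Atp5j was at 269, 276 and 276 FPKM in controls and 232, 246 and 280 in mutants, where the highest mutant was above every control.

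One member of the 74 had groups that did not overlap, which is 1.35% against 5% of all genes tested. It was Atp5sl (ENSMUSG00000057229, chromosome 7 from 25619414 to 25625551), which despite its symbol is no subunit of ATP synthase and is known as a factor in the assembly of the complex I membrane arm. Its FPKM was 16.7, 16.7 and 16.2 in controls and 15.1, 14.9 and 15.4 in mutants. All mutants were below all controls, and the log2 fold change was -0.12 (95% confidence interval -0.28 to 0.041, unadjusted p = 0.122 and adjusted p = 1 from limma).

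Summed over all members, the level was 13337 ± 376 FPKM (SD, n = 3) in controls and 13449 ± 1120 FPKM (SD, n = 3) in mutants. By complex the sums in controls and mutants were 3909 ± 188 and 3981 ± 411 FPKM in complex I, 399 ± 11.1 and 398 ± 17.4 FPKM in complex II, and 1484 ± 147 and 1480 ± 235 FPKM in complex III. In complex IV they were 2529 ± 76.1 and 2534 ± 130 FPKM and in complex V 5017 ± 93.2 and 5056 ± 325 FPKM. The difference was smaller than the SD of either group in every complex.

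The members varied more between replicate numbers than between genotypes. In 33 of the 74 (44.6%, against 34.7% of all genes tested), both first replicates were below all other samples. In 5 (6.76%, against 18.4% of all genes tested) they were above. The mean of the first replicates minus that of the others on the log2(FPKM + 1) scale had a median of -0.10, against -0.054 over all genes. It was -0.18 in complex III and -0.15 in complex I, and close to 0 in complexes II (-0.019), IV (-0.019) and V (-0.021). The difference was below 0 in 29 of 36 members of complex I and 7 of 8 of complex III, against 5969 of 10061 genes tested. Its size and direction still varied among subunits of 1 complex. The lowest value was that of Ndufb5, an accessory subunit of the complex I membrane arm (ENSMUSG00000027673, chromosome 3), at 98.3 and 91.2 FPKM in the first replicates and 153, 161, 167 and 165 FPKM in the others, a difference of -0.76. Ndufa12 (-0.62), Ndufv2 (-0.58), Ndufb8 (-0.56) and Ndufb10 (-0.46) followed in complex I. In the opposite direction stood Ndufs7 (0.28), a core subunit with an iron-sulfur cluster, with 100.4 and 94.0 FPKM in the first replicates and 76.4 to 84.7 FPKM in the others, and Cox6c (0.29) with 371 and 327 against 257 to 305 FPKM. These genes are named for this difference, which was seen in the data.

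**Figure D3:**
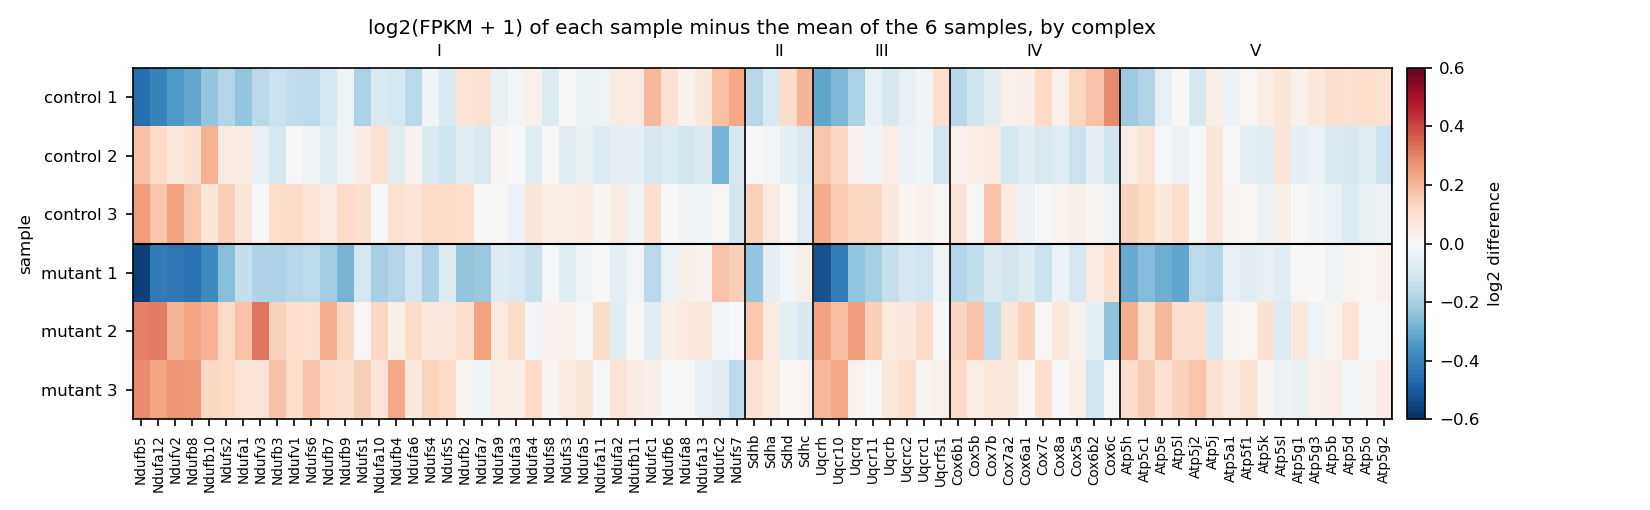
Each column is 1 of the 74 members and each row 1 sample, and the colour is log2(FPKM + 1) minus the mean of the 6 samples, with members ordered within each complex by the first replicates minus the others. The rows of control 1 and mutant 1 share the same blue columns at the left of complexes I and III and red columns at the right of complexes I and IV, while no block of columns separates the 3 upper from the 3 lower rows.

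Simple features of the transcripts followed this difference weakly. Across the 74 members its Spearman correlation was 0.026 with transcript length, 0.12 with GC content and -0.20 with the number of annotated transcripts, given as descriptions since all values come from the same 6 libraries. Other genes of the translation and mitochondrial machinery moved the same way, with medians of -0.24 over 80 tested cytosolic ribosomal protein genes and -0.19 over 73 mitochondrial ribosomal protein genes. The labels give no batch that separates the first replicates. Low FPKM values set the first replicates apart too. Among genes with an FPKM under 0.05 in both samples of a pair, 27.9 to 32.0% stood at 1 ratio in the 6 pairs without a first replicate, 1.15 to 1.89% in the 8 pairs with one, and 7.99% in the pair of both first replicates. The part of processing in the difference was not tested.

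Because of this, genotypes were also compared within the replicate numbers. Between the first replicates the median log2 fold change of the members was -0.081, with 9 of 74 (12.2%) higher in the mutant, against -0.0135 and 45.4% over all genes. In replicates 2 and 3 it was 0.064, with 67 of 74 (90.5%) higher in mutants, against 54.3% and a median of 0.013 over all genes. The groups of 2 did not overlap in 30 members (40.5%), 28 of them higher in mutants, against 45% of all genes not overlapping and 25% higher. In that fit 2 members had an unadjusted p under 0.05 in limma, against 5.41% of all genes called higher, and these were Ndufv3 (log2 fold change 0.22, adjusted p = 0.448) and Ndufb7 (0.18, adjusted p = 0.454). The median of the members thus had opposite signs in the first replicates and the others, a difference that was not tested. Neuron markers had a median log2 fold change of 0.083 between the first replicates and 0.21 in replicates 2 and 3, and erythroid markers of 0.026 and 0.61. Other lists turned sign as the members did, with -0.24 and 0.21 for forebrain progenitor markers (0 and then 8 of 8 higher) and -0.73 and 0.48 for 3 tested choroid plexus markers. Mitochondrial ribosomal protein genes (-0.077 and 0.059, 15 and then 56 of 73 higher) and assembly factors (-0.037 and 0.062, 14 and then 27 of 35) did so too. The medians were -0.0345 and 0.0426 for citric acid cycle genes and -0.079 and 0.0145 for cytosolic ribosomal protein genes. Cranial mesenchyme markers turned the other way, from 0.12 (8 of 8 higher) to -0.21 (0 of 8), and skeletal muscle markers stood at -0.053 and -0.62. Their part in the members' values was not tested.

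The other genome that codes for the chain gave a different picture. All 12 mitochondrially encoded subunits that passed the filter had a negative log2 fold change, from -0.68 to -0.12 with a median of -0.47, but none had an unadjusted p under 0.05 in limma and only mt-Nd5, named for this, had groups that did not overlap. Each was lower in the mutant between the first replicates and in the mean of replicates 2 and 3. Replicate 3 alone did not show this, since the summed FPKM given below was 31081 in its control and 32430 in its mutant. Without mutant replicate 2, 10 of the 12 had a negative log2 fold change. With the replicate number as a block 8 of the 12 had an unadjusted p under 0.05, where 3.7% of all genes were called lower, but the lowest adjusted p was 0.769 (limma). With a term for the first replicates in place of the block, 3 of the 12 had an unadjusted p under 0.05 (limma). In that fit 611 of 10061 genes were called in either direction. With replicates 2 and 3 only it was 0 of the 12, where 1103 genes were called. Control replicate 1 was the highest and mutant replicate 2 the lowest sample in all 12. mt-Atp8, the mitochondrial subunit with the highest mean FPKM, was at 8809, 6730 and 6434 FPKM in controls and 7687, 5232 and 7326 in mutants. The summed FPKM of these and mt-Nd4l was 47201, 31205 and 31081 in controls and 35822, 20515 and 32430 in mutants, so mutant replicates 1 and 3 lay within the range of the controls and replicate 2 below it. Leaving that sample out gave a median of -0.13, leaving out control replicate 1 gave -0.22, and the level of Y-linked genes as a covariate gave -0.16. mt-Nd4l was listed at 0 to 1.24 FPKM and was left out of the fit, while mt-Nd4, with which it shares a transcript, was at 373 to 1929 FPKM. Nuclear members in mutant replicate 2 were not low, with a median of 1.06 times the control mean against 0.451 times for the mitochondrially encoded subunits. The ratio of the summed mitochondrial to the summed nuclear FPKM was 3.60, 2.37 and 2.26 in controls and 2.95, 1.45 and 2.31 in mutants. The sequencing libraries were made from poly(A)+ RNA, and whether mutant replicate 2 held fewer mitochondrial transcripts or captured fewer of them was not tested.

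**Figure D4:**
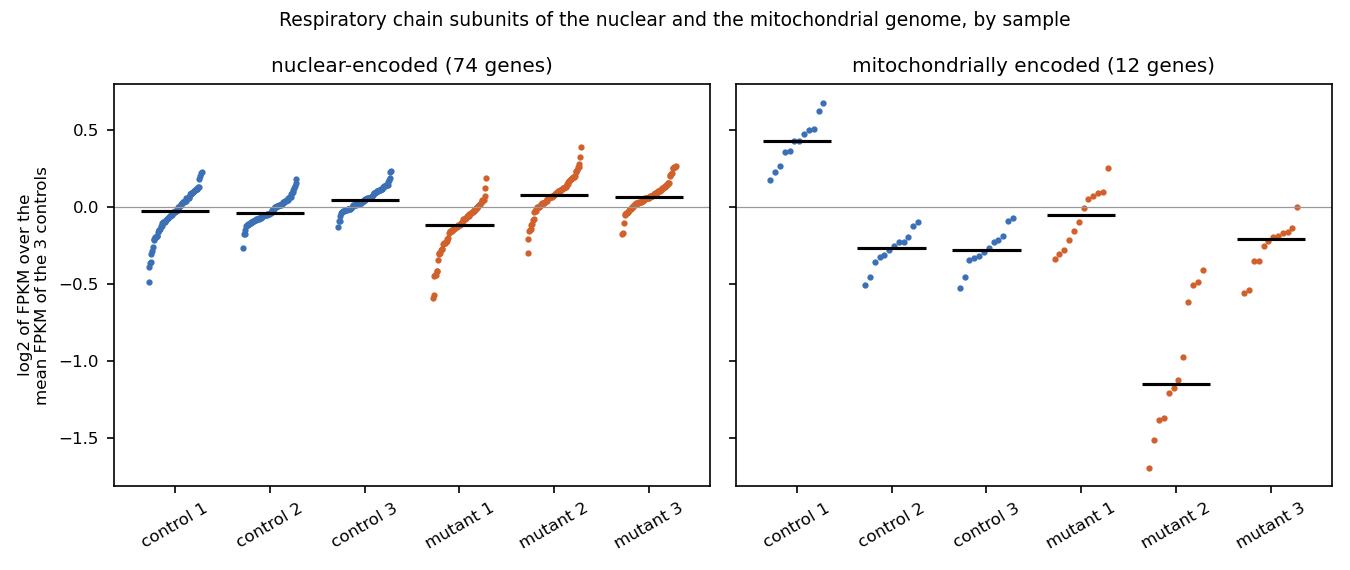
Log2 of the FPKM in each sample over the mean of the 3 controls, with 1 point per gene, sorted by value within each sample, for 74 nuclear-encoded members (left) and 12 mitochondrially encoded subunits (right). Black lines are medians, which stay near 0 for nuclear members in all samples and drop in mutant 2 for mitochondrially encoded subunits (0.451 times the control mean on the linear scale).

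Several subunits exist as isoforms from separate genes, 1 of them in most tissues and the other in heart and skeletal muscle, lung or testis. The tissue-restricted forms were minor in the craniofacial tissue. Cox6b2, the testis form, made up 3.91 ± 0.655% of Cox6b FPKM in controls and 3.58 ± 0.639% (SD, n = 3) in mutants, and Cox4i2, the lung form, which the symbol rule does not take, 0.986 ± 0.0888% and 0.889 ± 0.0981% of Cox4i. Among the muscle forms Cox7a1 stood at 1.87, 1.58 and 2.80 FPKM in controls and 3.15, 3.00 and 3.06 FPKM in mutants. All mutants were above all controls, and its share of Cox7a was 1.15, 1.07 and 1.68% in controls and 2.11, 1.77 and 1.82% in mutants, a mean of 1.30 ± 0.333 against 1.90 ± 0.181% (SD, n = 3 each). Cox7a1 did not reach the FPKM filter. With a filter of 1 its log2 fold change was 0.42 (95% confidence interval 0.069 to 0.77, unadjusted p = 0.0252 and adjusted p = 1 from limma), where 0.865% of all genes were called higher, so it did not pass the adjusted threshold.

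The other muscle isoforms did not separate the groups. Cox6a2 was at 0.581, 2.77 and 0.831 FPKM in controls and 0.787, 1.40 and 0.376 FPKM in mutants, and Cox8b at 0.148, 1.2 and 0.298 FPKM and 0.125, 0.160 and 0.163 FPKM. Control replicate 2 was the highest sample for both. The summed FPKM of 10 skeletal muscle markers was also highest there, at 487, against 175 and 299 in the other controls and 168, 272 and 215 in the mutants, and the part of muscle in these values was not tested. The c subunit of ATP synthase, which forms the rotating ring in the membrane, comes from 3 genes with the same mature protein. Atp5g3 gave 46.3 ± 0.718% of their FPKM in controls and 45.6 ± 0.599% in mutants, Atp5g2 35.4 ± 0.991 and 36.2 ± 0.271%, and Atp5g1 18.2 ± 0.446 and 18.2 ± 0.870% (SD, n = 3 each).

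**Figure D5:**
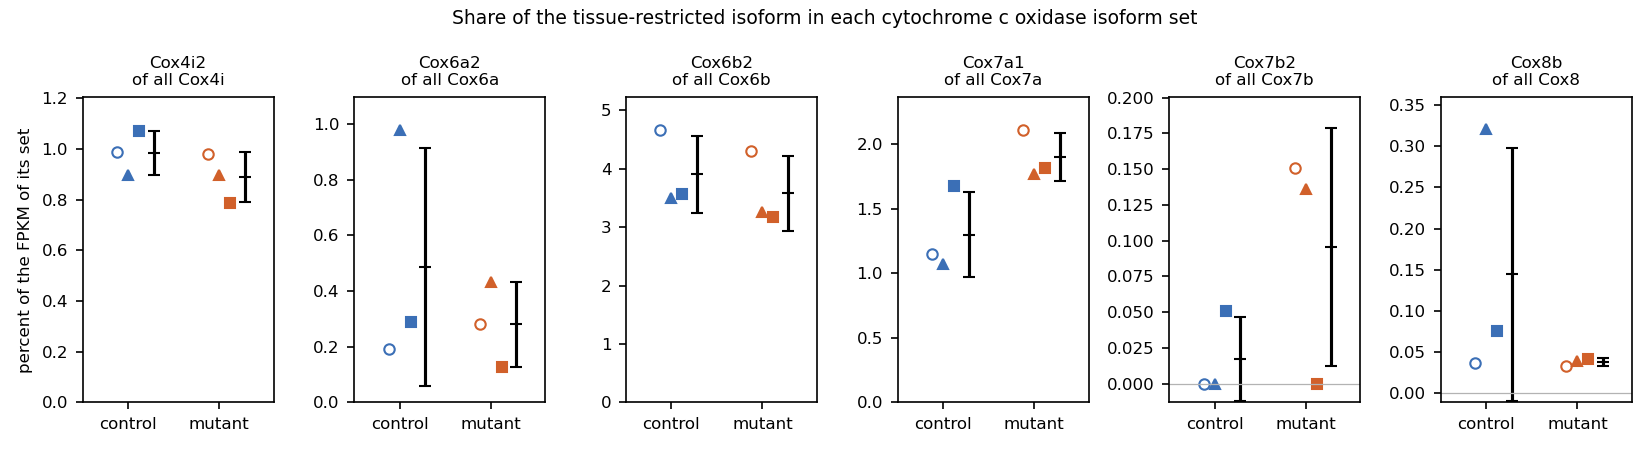
Percent of the FPKM of each cytochrome c oxidase isoform set that came from the tissue-restricted gene, in 3 controls (blue) and 3 Rbfox2 mutants (orange), with open circles, triangles and squares for replicates 1, 2 and 3 and the mean ± SD beside them. Of the 6 sets only Cox7a1 has mutants (1.77 to 2.11%) above all controls (1.07 to 1.68%), and each axis has its own scale.

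The 7 members that did not pass the filter were Cox6a2, Cox7a1, Cox8b, Cox7b2, Cox8c, Atp5l2 and Atp5s. Cox8c was listed at 0 in all samples, Cox7b2 at up to 0.164 FPKM and Atp5l2 at up to 0.483 FPKM. Atp5s, a coupling factor B gene and not a structural subunit, was at 4.01 to 5.12 FPKM with overlapping groups.

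No gene of the lists that work with the chain passed the test either. Of 35 tested assembly factors, which build the complexes, none had an unadjusted p under 0.05 in limma, and the median log2 fold change was 0.012. The same count was 0 of 7 for subunits outside the symbol rule such as Cox4i1, Cyc1 and Cycs (median 0.017), 0 of 16 for citric acid cycle genes (median 0.012), which supply NADH and succinate, and 0 of 73 for mitochondrial ribosomal proteins (median 0.014, with 1 of them higher under the replicate block). Of 12 tested regulators of mitochondrial biogenesis 1 was lower, Polg, the catalytic subunit of the mitochondrial DNA polymerase, at 19.9, 18.4 and 17.9 FPKM in controls and 16.2, 15.6 and 15.6 FPKM in mutants (log2 fold change -0.23, standard error 0.075, unadjusted p = 0.0172 and adjusted p = 1 from limma). None of the 15 tested glycolysis genes had an unadjusted p under 0.05, while 2 of them had a log2 fold change above 0, against 52.8% of all genes (median -0.041), and in replicates 2 and 3 this was 8 of 15 (median 0.0040). Groups that did not overlap were found in 3 of 12 biogenesis regulators (25%, Polg, Pprc1 and Tfb2m), 2 of 15 glycolysis genes (13.3%, Aldoa and Pfkl), 1 of 16 citric acid cycle genes (Idh3b) and 1 of 35 assembly factors (Nubpl), against 5% of all genes. All of them were lower in mutants except Nubpl, which was higher, and they are named for not overlapping. With the replicate number as a block, 1 assembly factor was higher, Ndufaf1 (log2 fold change 0.15, unadjusted p = 0.0452 in limma), and 1 glycolysis gene lower, Aldoa (-0.14, unadjusted p = 0.0259), against 2.31% of all genes higher and 3.7% lower in that fit.

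Close copies of the members could take or add fragments. An annotated pseudogene shared a stretch of 100 bases with 14 members, and 19 of these 21 pseudogenes have values in the table. Their summed mean FPKM was 67.3 for Atp5g2, whose own share may therefore be uncertain, and 2.97 for Atp5l and 2.04 for Ndufb4.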

How the data were processed

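Poly(A)+ RNA-Seq libraries of 3 control and 3 Rbfox2 mutant samples were analysed. The authors aligned paired-end reads to GRCm38 with STAR and named Cuffdiff for expression, and the submitters' processing notes also name FastQC 0.11.4. The authors deposited 1 FPKM value per gene and sample. The annotation and the step that made the gene table are not given in the sources used here, and depth per gene is unknown.

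Here, genes with an FPKM over 5 in all controls or all mutants (10061) were compared on log2(FPKM + 1) by limma-trend (limma 3.58.1, R 4.3.3) and adjusted by Benjamini-Hochberg. A fold change on this scale understates that of low genes. The fit was tested on simulated data with independent noise in each gene and sample. Those data held no shared difference of the first replicates, so the fit was not tested under that structure. Coordinates and transcripts came from GENCODE M21 for GRCm38, which held all 81 members. The deviation of each sample from its group mean was correlated across genes between equal replicate numbers, which gave 0.644, 0.258 and 0.513 for 1, 2 and 3, all over 0.1, so the number was also fitted as a block. No label ties the numbers to litters or days, and control 3 with mutant 2 gave 0.401, above the value for 2, and control 2 with mutant 3 gave 0.234, so the correlations set the first replicates apart but do not tell 2 from 3. Named genes were those with an unadjusted p under 0.05, the 2 highest and the most and least changed of each complex, isoform sets, X-linked members and members below the filter. Members and lists were chosen with earlier results of these data known. Alternatives were pseudocount, filters, scalings, replicate block, first-replicate term, replicates 2 and 3 only, a Y-linked covariate and leaving out each sample. P-values measure the spread between these samples, which the authors describe as independent biological replicates. In the fit without a block, the difference between replicate numbers counts as part of that spread.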

Additional observations from a re-analysis of the deposited data

How the results depend on the processing

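No member had an adjusted p under 0.05 in limma under any of the 17 alternatives. The replicate block changed no call of a member, with 0 members at an unadjusted p under 0.05 and a median log2 fold change of 0.0149 as without it. The count of members at an unadjusted p under 0.05 and higher in mutants went from 0 to 1 with an FPKM filter of 1 and with no filter (Cox7a1), to 2 with replicates 2 and 3 only, and was 0 to 1 with each sample left out in turn. Members whose groups do not overlap went from 1 to 2 with either filter and to 30 with replicates 2 and 3 only (40.5%, against 45% of all genes). They were 1 to 20 with each sample left out, 20 without mutant replicate 1. Smaller groups separate more readily, and the share of all genes was not counted with a sample left out. Those counts are thus not read as a result about the members. The complex IV median was 0.0762 with replicates 2 and 3 only. The median over all members was -0.013 to 0.0737 with each sample left out.

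Over all 74 members, the number with a log2 fold change above 0 went from 47 to 67 with replicates 2 and 3 only. It was 61 with the Y-linked covariate and 28 to 62 with each sample left out in turn. Among the named genes alone, signs of small log2 fold changes turned in 45 cases, none past a threshold. With replicates 2 and 3 only these were Atp5g3 (0.0298), Ndufa4 (0.0537), Sdhd (0.00381), Uqcr10 (0.0713) and Uqcrh (0.0249). With quantile normalization they were Atp5a1 (-0.00435), Cox8a (-0.00769) and Uqcr10 (0.0115), and with the Y-linked covariate Atp5g1 (-0.0388), Atp5g3 (0.0318), Atp5j (0.0336), Cox7b (0.0156), Ndufa4 (0.114), Uqcr10 (0.236) and Uqcrh (0.18). With each sample left out in turn, the log2 fold changes ran as follows for the named genes whose sign turned at least once: Atp5a1 -0.0099 to 0.0424, Atp5b -0.018 to 0.0735, Atp5g1 -0.0132 to 0.0427, Atp5g3 -0.02 to 0.0286, Cox6a1 -0.0109 to 0.0976, Cox6b1 -0.0266 to 0.145, Cox7a2 -0.0319 to 0.0759, Cox8a -0.0189 to 0.036, Ndufa1 -0.0293 to 0.161, Ndufa3 -0.00891 to 0.0916, Ndufa4 -0.0837 to 0.0431, Sdha -0.00216 to 0.0715, Sdhb -0.0643 to 0.133, Sdhd -0.0794 to 0.0064, Uqcr10 -0.139 to 0.208 and Uqcrh -0.223 to 0.195.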
